A study of Mus musculus with 10 samples.

Results

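The Notch pathway of tumour endothelium is described here through 10 genes chosen by name: the receptors Notch1 and Notch4, the ligands Dll4, Jag1 and Jag2, and the target genes Hes1, Hey1, Hey2, Heyl and Nrarp. All 10 were found among the 28454 gene symbols of each deposited table, and 8 of them passed the filter on low values (1 FPKM or more in 4 or more libraries), as did 12805 symbols in all. Hey2 and Heyl did not pass and are given as values. FPKM is a level of sequenced fragments corrected for transcript length and library size. Endothelial cells were isolated from B16F10 melanomas, tumours of a mouse melanoma line, and their total RNA was sequenced. Tumour cells positive for CD11b, a myeloid surface protein, were first depleted with magnetic beads, and cells positive for the endothelial protein CD31 were then selected. There were 6 Shb-inactivated libraries, from adult mice with the strain label Shbflox/flox/Cdh5-CreERt2, and 4 wild-type libraries, from adult mice with the strain label Cdh5-CreERt2. Both groups therefore carry the same inducible Cre recombinase under the promoter of Cdh5, the endothelial cadherin, and the floxed Shb alleles are on the label of the inactivated group alone. When and how Cre was induced is not given in the sources used here. The tissue label reads tumours, although the source label of the samples also names lungs. The comparison asks how loss of Shb, an adaptor protein that binds activated receptor tyrosine kinases such as the VEGF receptor Kdr, alters tumour endothelial transcripts.

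Notch receptors are cut when a ligand on a neighbouring cell pulls on them, and the released intracellular part joins the DNA-binding protein RBPJ to switch on target genes. In growing vessels VEGF raises the ligand Dll4 in leading tip cells, and Dll4 restrains sprouting of the neighbouring stalk cells through Notch1. Hes1, Hey1, Hey2 and Heyl encode transcriptional repressors of one family, and Nrarp encodes a feedback inhibitor of the Notch transcription complex.

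The promoters of Dll4 and Nrarp are shown as those of a ligand and a target that varied together across libraries. Their correlation (r = 0.87, adjusted permutation p = 0.0505) fell short of the threshold. Jag2 and Notch4 had a higher r with Dll4 and are not shown. That of Hey2 is shown because it held the RBPJ core motif. Each run is the 250 bases upstream of the gene start in RefSeq on GRCm38.p6, on the strand of the gene, in lower case. Capitals mark the motif GTGGGAA or its reverse complement. The Dll4 window is chr2:119325534-119325783 on the plus strand, that of Nrarp is chr2:25180508-25180757 on the plus strand and that of Hey2 is chr10:30842784-30843033 on the minus strand.
Dll4: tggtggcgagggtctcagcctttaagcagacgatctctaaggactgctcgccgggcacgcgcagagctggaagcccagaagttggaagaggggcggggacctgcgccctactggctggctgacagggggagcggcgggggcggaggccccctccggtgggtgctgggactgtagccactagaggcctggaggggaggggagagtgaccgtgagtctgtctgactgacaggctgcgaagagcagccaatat
Nrarp: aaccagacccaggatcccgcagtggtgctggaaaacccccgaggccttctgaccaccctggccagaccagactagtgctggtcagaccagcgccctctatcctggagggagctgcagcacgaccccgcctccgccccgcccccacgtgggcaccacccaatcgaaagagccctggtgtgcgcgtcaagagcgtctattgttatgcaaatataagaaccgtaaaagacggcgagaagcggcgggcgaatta
Hey2: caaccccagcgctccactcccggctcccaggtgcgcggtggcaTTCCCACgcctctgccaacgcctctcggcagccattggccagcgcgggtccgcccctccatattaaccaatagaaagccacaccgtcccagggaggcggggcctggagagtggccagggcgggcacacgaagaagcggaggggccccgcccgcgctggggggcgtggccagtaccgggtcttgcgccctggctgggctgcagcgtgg
Of the 10 members, 7 had a window in the RefSeq table, namely Notch1, Notch4, Dll4, Jag1, Jag2, Hey2 and Nrarp. The motif GTGGGAA, searched on both strands, was found in 1 of these 7, in Hey2, where its reverse complement TTCCCAC lay 207 to 201 bases before the gene start. It was found in 1767 of 32536 windows of the same length over all genes (5.43%). The match is one of letters and says nothing of binding.

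In GENCODE vM21 on GRCm38, 4 members lie on chromosome 2. They are Nrarp (25180758 to 25183339, plus strand), Notch1 (26457903 to 26516663, minus strand), Dll4 (119325784 to 119335962, plus strand) and Jag1 (137081456 to 137116644, minus strand). Exons of Nrarp overlap the opposite-strand gene Gm38287, which had 39.3 to 91.6 FPKM, more than Nrarp itself. Exons of Dll4 overlap the opposite-strand gene Gm14207, with 8.06 to 22.8 FPKM. Notch1 overlaps 0610009E02Rik and Gm13568, neither above 0.99 FPKM. Whether strand was used in the counting is not given in the sources used here, so the levels of Nrarp and Dll4 may hold reads of these partners. No exon of another gene overlapped the remaining 7 members.

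Libraries differed in ways that the groups do not explain. Summed FPKM of small nucleolar RNAs (Snora and Snord genes) was 636 to 1851 in Shb-inactivated replicates 1 and 2 and wild-type replicate 1, against 3138 to 11473 in the other 7. Summed FPKM of 14 macrophage markers was 4387 to 6834 in Shb-inactivated replicates 3 and 4 and wild-type replicate 3, against 55.3 to 632 elsewhere. These are called the low-snoRNA and macrophage-rich libraries, and the other 4 are Shb-inactivated replicates 5 and 6 and wild-type replicates 2 and 4. All 20 pan-endothelial markers were present, with a summed level of 5296 to 7377 FPKM in Shb-inactivated libraries and 4422 to 5695 FPKM in wild-type libraries. Summed melanoma markers reached 16.9 to 445 FPKM in Shb-inactivated and 99.8 to 1287 FPKM in wild-type libraries, the highest being wild-type replicate 1. Summed mural cell markers reached 145 to 754 FPKM in Shb-inactivated and 118 to 359 FPKM in wild-type libraries. No marker of these 4 lists that the files hold was at 0 in every library. Shb was at 0.37 to 1.44 FPKM in Shb-inactivated libraries and at 2.78 to 5.44 FPKM in wild-type libraries, with no overlap (log2 difference -1.27, SE 0.21, exact permutation p = 0.00476, adjusted p = 0.989 by limma over all genes).

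Dll4 had the highest mean of the 10 genes, and no member differed between the groups past the threshold. By mean over the 10 libraries the order was Dll4 at 103, Notch4 at 90.8, Hes1 at 74.2, Notch1 at 48.5, Hey1 at 47.4, Jag1 at 27.5, Jag2 at 27.0 and Nrarp at 14.4 FPKM, then Heyl at 0.666 and Hey2 at 0.600 FPKM. Neighbours in this order were compared within libraries, by the mean difference of log2(FPKM + 1) and its SD over 10 libraries. Dll4 was above Notch4 in 9 of 10 libraries, by 0.19 ± 0.19 on that scale. Dll4 was above Hes1 in 8 of 10 libraries, Hes1 being higher in Shb-inactivated replicates 5 and 6. Hey1 was above Jag1, Jag2 above Nrarp and Nrarp above Heyl in 10 of 10 libraries. The remaining neighbours, Notch4 and Hes1, Hes1 and Notch1, Notch1 and Hey1, Jag1 and Jag2, and Heyl and Hey2, differed by less than their SD. Among all 28454 symbols Dll4 ranked between 460 and 1407 and Notch4 between 496 and 1583 across the libraries. The order is a description and was not tested.

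**Figure D1:**
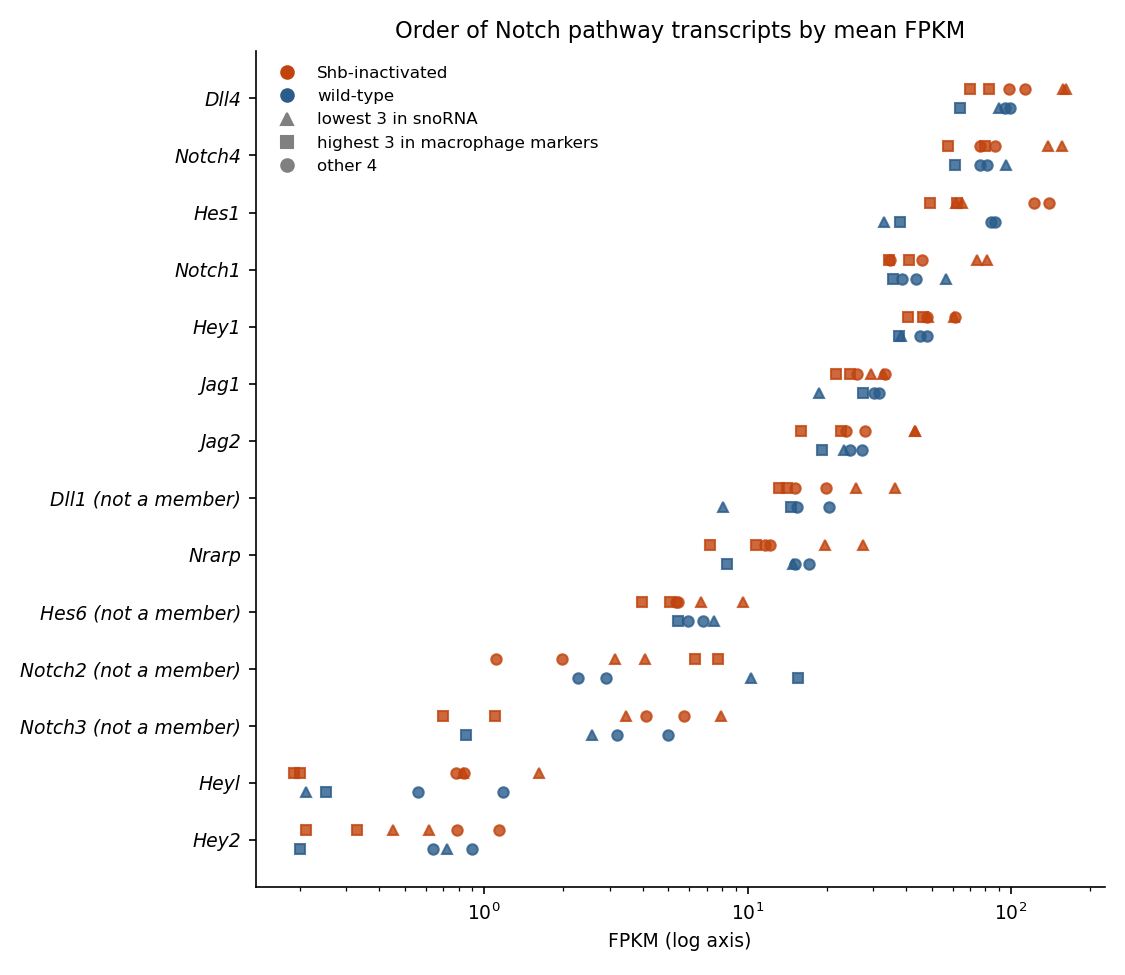
FPKM (log axis) of the 10 Notch members and of Dll1, Hes6, Notch2 and Notch3 in each library, ordered by the mean of 10 libraries, with Shb-inactivated libraries (orange) above wild-type libraries (blue) in each row. Marker shapes give the 3 kinds of library, and Dll4 (mean 103 FPKM) and Notch4 (90.8 FPKM) lead, while Hey2 and Heyl stay under 2 FPKM.

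Among ligands, Dll4, which restrains sprouting, was far above the Jagged ligands in every library. Dll4 had a lowest, median and highest value of 69.8, 106 and 162 FPKM in Shb-inactivated libraries, against 89.8, 94.6, 63.9 and 99.5 FPKM in wild-type replicates 1 to 4. The highest values, 157 and 162 FPKM, were those of Shb-inactivated replicates 1 and 2, the lowest 3 were those of the macrophage-rich libraries, and the groups overlapped. The difference on the log2(FPKM + 1) scale was 0.34 (SE 0.25, 95% interval -0.22 to 0.89, limma adjusted p = 0.989, exact permutation p = 0.248). Gm14207, whose exons overlap those of Dll4, was at 0.48 (limma unadjusted p = 0.0369, adjusted p = 0.989). Its part in the Dll4 level was not tested. Jag1, a ligand that can oppose Dll4 in endothelium where Fringe enzymes modify the receptor, had 21.6, 27.7 and 33.2 FPKM as lowest, median and highest in Shb-inactivated libraries, against 18.7, 31.5, 27.4 and 30.3 FPKM in wild-type replicates 1 to 4. Its spread was small, 1.78-fold between the extremes, and the groups overlapped (difference 0.06, SE 0.17, limma adjusted p = 0.995). Jag2, a further Jagged ligand, had 15.9, 25.8 and 43.1 FPKM as lowest, median and highest in Shb-inactivated libraries, against 23.2, 24.4, 19.1 and 27.2 FPKM in wild-type replicates 1 to 4. Shb-inactivated replicates 1 and 2 were again the 2 highest, at 43.1 FPKM each, and the other 8 libraries lay between 15.9 and 27.9 FPKM with the groups mixed (difference 0.24, SE 0.26, limma adjusted p = 0.989).

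Dll4 exceeded Jag1 by 2.33 to 5.52-fold and Jag2 by 3.34 to 4.80-fold over the 10 libraries. The ratio of Dll4 to Jag2 averaged 3.96 ± 0.52 in Shb-inactivated and 3.69 ± 0.25 in wild-type libraries (SD, n = 6 and 4), while Dll4 spanned 2.54-fold and Jag2 2.71-fold over the libraries. Dll1, a ligand outside the 10, came next at a mean of 18.3 FPKM and was below Jag2 in 10 of 10 libraries. Dll3 averaged 0.066 FPKM.

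Among receptors, Notch4, found mainly on endothelium, was above Notch1 in 10 of 10 libraries. Notch4 had 57.8, 83.2 and 156 FPKM as lowest, median and highest in Shb-inactivated libraries, against 95.5, 81.0, 61.3 and 76.5 FPKM in wild-type replicates 1 to 4. Notch1, the receptor required for endothelial responses to Dll4, had 34.4, 43.5 and 80.9 FPKM as lowest, median and highest in Shb-inactivated libraries, against 56.6, 43.4, 35.5 and 38.6 FPKM in wild-type replicates 1 to 4. For both receptors the 3 low-snoRNA libraries were the 3 highest of the 10, and the groups overlapped. The differences were 0.26 for Notch4 (SE 0.27, 95% interval -0.33 to 0.85) and 0.18 for Notch1 (SE 0.27, 95% interval -0.41 to 0.77), each with a limma adjusted p of 0.989. The ratio of Notch4 to Notch1 stayed between 1.68 and 2.21, a 1.32-fold range, while Notch4 alone spanned 2.70-fold and Notch1 alone 2.36-fold. It averaged 1.92 ± 0.17 in Shb-inactivated and 1.82 ± 0.13 in wild-type libraries (SD, n = 6 and 4).

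The receptors outside the 10 were scarce. Notch2 averaged 4.05 ± 2.54 FPKM in Shb-inactivated and 7.76 ± 6.35 FPKM in wild-type libraries, and Notch3, which marks mural cells, averaged 3.83 ± 2.74 FPKM in Shb-inactivated and 2.90 ± 1.71 FPKM in wild-type libraries (SD, n = 6 and 4). Neither differed past the threshold (limma adjusted p = 0.989 and 0.994). Notch2 was highest in the macrophage-rich wild-type replicate 3, at 15.5 FPKM. It was lower in the Shb-inactivated than in the wild-type libraries of each of the 3 kinds of library. Notch2 had 3.14 to 4.07 FPKM in Shb-inactivated against 10.3 FPKM in wild-type low-snoRNA libraries, and 6.30 to 7.72 FPKM in Shb-inactivated against 15.5 FPKM in wild-type macrophage-rich ones. Among the other 4 it had 1.11 to 1.97 FPKM in Shb-inactivated against 2.27 to 2.89 FPKM in wild-type libraries. That every Shb-inactivated library was below every wild-type library of its kind held for 636 of 12805 genes (4.97%), and this pattern in Notch2 was noticed after its values were seen.

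**Figure D2:**
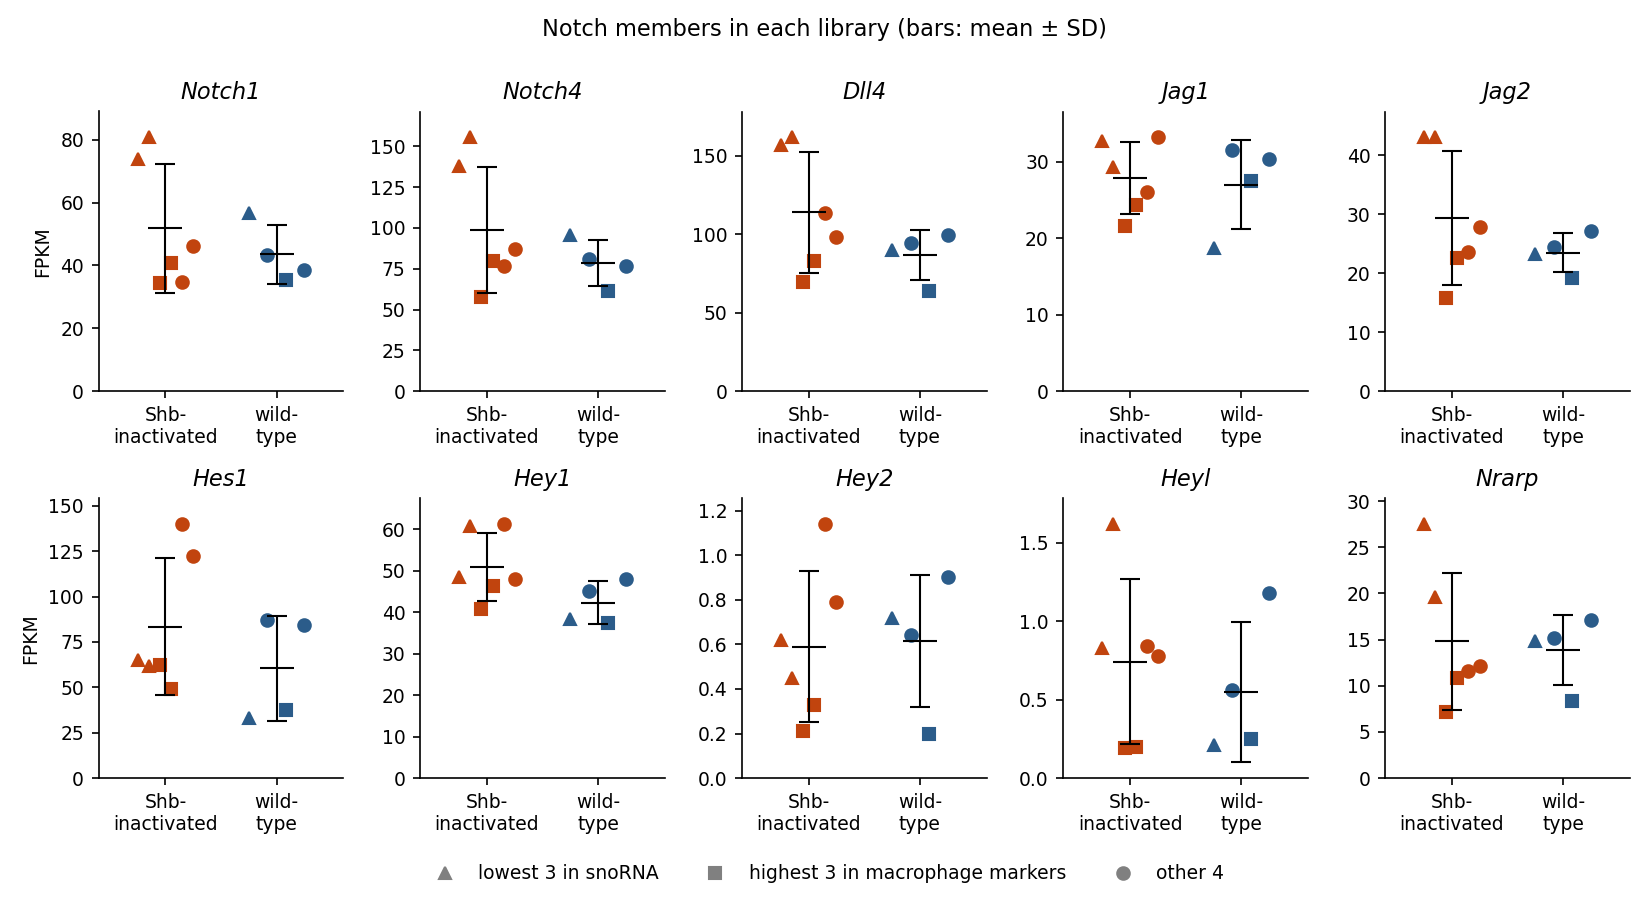
FPKM of the 10 members, 1 panel per gene and 1 point per library, with Shb-inactivated libraries on the left and wild-type libraries on the right of each panel; bars give the mean and SD (n = 6 and 4). Triangles are low-snoRNA, squares macrophage-rich and circles the other 4 libraries; Shb-inactivated replicates 1 and 2 top Dll4, Notch1, Notch4, Jag2 and Nrarp, while Hes1 is highest in Shb-inactivated replicates 5 and 6, at 140 and 122 FPKM.

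Among targets, Hes1 varied most of the 8 tested members, 4.23-fold between its extremes. Hes1 had 49.2, 63.6 and 140 FPKM as lowest, median and highest in Shb-inactivated libraries, against 33.1, 87.1, 37.8 and 84.1 FPKM in wild-type replicates 1 to 4. The highest 4 values were those of the 4 libraries that were neither low in snoRNA nor rich in macrophage markers, and the groups overlapped. The difference was 0.48 (SE 0.38, 95% interval -0.35 to 1.31; limma adjusted p = 0.989, exact permutation p = 0.286). Hey1 had 40.7, 48.1 and 61.3 FPKM as lowest, median and highest in Shb-inactivated libraries, against 38.2, 45.1, 37.5 and 48.0 FPKM in wild-type replicates 1 to 4. It was the steadiest member, 1.63-fold between extremes, and 5 of 6 Shb-inactivated libraries lay above the wild-type median. Its difference was 0.26 (SE 0.14, 95% interval -0.05 to 0.56; limma p = 0.0913, adjusted p = 0.989, exact permutation p = 0.0857).

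Nrarp had 7.18, 11.9 and 27.5 FPKM as lowest, median and highest in Shb-inactivated libraries, against 14.9, 15.1, 8.39 and 17.1 FPKM in wild-type replicates 1 to 4. Shb-inactivated replicates 1 and 2 were the highest, at 27.5 and 19.7 FPKM, and the other 4 Shb-inactivated libraries lay at or below 12.2 FPKM, where only wild-type replicate 3 lay among wild-type libraries. The means were nearly equal (difference 0.01, SE 0.33, 95% interval -0.72 to 0.74). Hey2, an arterial regulator, had 0.210, 0.535 and 1.14 FPKM as lowest, median and highest in Shb-inactivated libraries, against 0.720, 0.640, 0.20 and 0.900 FPKM in wild-type replicates 1 to 4. Heyl, more typical of mural cells, had 0.190, 0.805 and 1.62 FPKM as lowest, median and highest in Shb-inactivated libraries, against 0.210, 0.560, 0.250 and 1.18 FPKM in wild-type replicates 1 to 4. Both were scarce in every library and the groups overlapped. With no read totals deposited, the counting error of such low values is unknown.

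None of the 8 tested members passed an adjusted p of 0.05 by limma, as was the case for all 12805 genes tested (0% called). None of the 8 had an unadjusted p under 0.05, against 442 genes overall (3.45%). In none of the 10 were the groups free of overlap, against 92 of the tested genes (0.718%). The 8 differences were all above 0, as were 51.2% of all tested genes, with a median of 0.25 against 0.01 over all genes. The members share libraries and vary together, so this count is a description. The intervals leave room for differences in either direction for each of the 8.

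The pan-endothelial markers were also higher in the Shb-inactivated group. Their mean log2 level was 7.72 ± 0.23 in Shb-inactivated and 7.40 ± 0.15 in wild-type libraries (SD, n = 6 and 4; exact permutation p = 0.0429), with a difference above 0 for 20 of 20 genes. Pecam1, which encodes CD31, averaged 963 ± 137 FPKM in Shb-inactivated and 759 ± 138 FPKM in wild-type libraries, and Cdh5 averaged 523 ± 83.9 FPKM in Shb-inactivated and 402 ± 26.3 FPKM in wild-type libraries (SD, n = 6 and 4). Relative to the pan-endothelial mean of the same library, the members' differences were -0.14 for Notch1, -0.07 for Notch4, 0.01 for Dll4, -0.27 for Jag1, -0.09 for Jag2, 0.15 for Hes1, -0.07 for Hey1 and -0.32 for Nrarp, with 0 genes called by limma and 2237 under an unadjusted p of 0.05. The median of all genes moved to -0.32 on that scale. In bulk samples, more cells of a type and more RNA per cell cannot be told apart.

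Shb-inactivated replicates 1 and 2 had the highest levels of both receptors and of Dll4, Jag2 and Nrarp. Dll4 averaged 159 FPKM in those 2 and 91.0 FPKM in Shb-inactivated replicates 3 to 6, against 86.9 ± 15.9 FPKM in wild-type libraries (SD, n = 4). Without both, a setting chosen after the values were seen, the difference of Dll4 was 0.06, that of Notch1 -0.14, of Notch4 -0.06, of Jag2 -0.07 and of Nrarp -0.36, and the median over the 8 was -0.04. The 3 low-snoRNA libraries also stood apart by GC content, with a Spearman correlation of 0.513 across genes between GC content and their difference from the other 7. Replicates 1 and 2 minus replicates 3 to 6 of the Shb-inactivated group correlated with transcript GC content across 11060 genes (Spearman 0.593), which are not independent. The median difference between these libraries was -0.33 in the GC-poorest of 10 equal bins of genes and 0.51 in the GC-richest. Jag2 and Notch4 had GC contents of 61.9% and 61.2%, Notch1 57.1%, Dll4 55.9% and Nrarp 54.5%, against a median of 49.96% over the genes, while Hey1 had 52.6%, Hes1 50.7% and Jag1 48.8%. The part of GC content in the levels of these genes in Shb-inactivated replicates 1 and 2 was not tested.

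**Figure D3:**
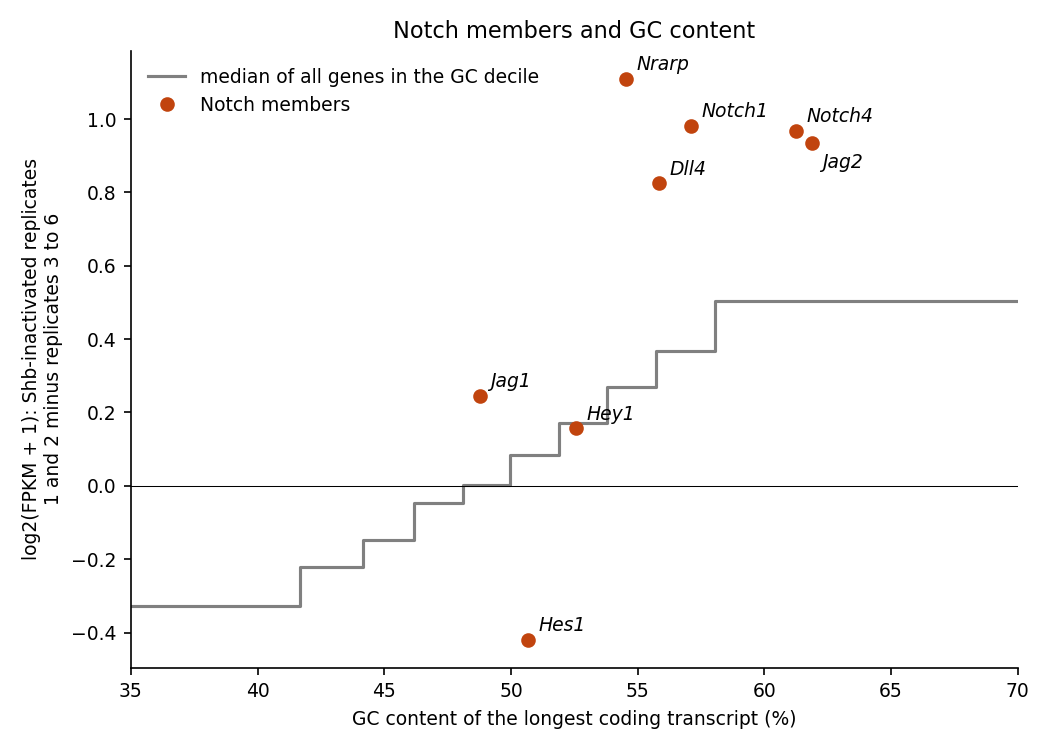
GC content of the longest coding transcript (%) against the difference in log2(FPKM + 1) between Shb-inactivated replicates 1 and 2 and replicates 3 to 6, for the 8 tested members (points) and as the median of all genes in each of 10 bins by GC content (grey line). Nrarp, Notch1, Notch4, Jag2 and Dll4 lie above the line at 1.11 to 0.82, and so does Jag1 at 0.25. Hey1 lies on the line, and Hes1 below it at -0.42.

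Nrarp, Notch1, Notch4, Jag2 and Dll4 differed between these 2 sets of Shb-inactivated libraries by 1.11, 0.98, 0.97, 0.93 and 0.82 on the log2 scale. After subtraction of the median deviation of genes of like GC content, a setting added after the values were seen, they differed by 0.86, 0.58, 0.41, 0.38 and 0.49. Hes1 went the other way, at -0.42 before and -0.48 after. With that adjustment the differences between the genotypes stayed near their unadjusted size, at 0.35 for Dll4 and 0.45 for Hes1, with 0 genes called by limma and 481 under an unadjusted p of 0.05.

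Set beside wild-type libraries of the same kind, Hes1 was higher in the Shb-inactivated libraries throughout. Hes1 had 61.7 to 65.1 FPKM in Shb-inactivated against 33.1 FPKM in wild-type low-snoRNA libraries (2 and 1 libraries). Among macrophage-rich libraries it had 49.2 to 62.1 FPKM in Shb-inactivated against 37.8 FPKM in wild-type ones (2 and 1), and among the other 4 it had 122 to 140 FPKM in Shb-inactivated against 84.1 to 87.1 FPKM in wild-type ones. Hes1 was the only member of the 10 with this pattern, which 629 of 12805 genes showed (4.91%), Pecam1 and Cdh5 among them. The kinds of library were defined, and the pattern noticed, after the values were seen. A limma fit with the kind of library as a term, added for that reason, gave Hes1 a difference of 0.68 (SE 0.10, unadjusted p = 0.000105) and an adjusted p of 0.144, and it called 0 of 12805 genes (0%), with 18.2% under an unadjusted p of 0.05. Dll4 was at 0.36 (SE 0.13) and Hey1 at 0.29 (SE 0.11) in that fit, with adjusted p-values of 0.225 and 0.236.

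Taken relative to the pan-endothelial mean in the same fit, also added later, Hes1 was at 0.32 (SE 0.11, limma adjusted p = 0.0601) and Dll4 at 0.00 (SE 0.09, limma adjusted p = 0.987). In that fit 852 genes passed, 6360 of 12805 had an unadjusted p under 0.05 and the median of all genes lay at -0.35. In the fit without the kind of library, the Hes1 difference of 0.48 became -0.06 with the mean log2 level of the melanoma markers as a covariate (limma adjusted p = 1.0). It was 0.24 with that of the mural cell markers and 0.37 with that of the macrophage markers. Shb-inactivated replicate 5, which had the highest Hes1 level, also had the highest mural cell markers, at 754 FPKM. Wild-type replicate 1, which had the lowest Hes1 level, had the highest melanoma markers, at 1287 FPKM against 16.9 to 445 FPKM in Shb-inactivated libraries and 99.8 to 365 FPKM in the other wild-type libraries. None of these covariates was combined with the kind of library. The part of melanoma or mural cell transcripts in the Hes1 differences was not tested.

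**Figure D4:**
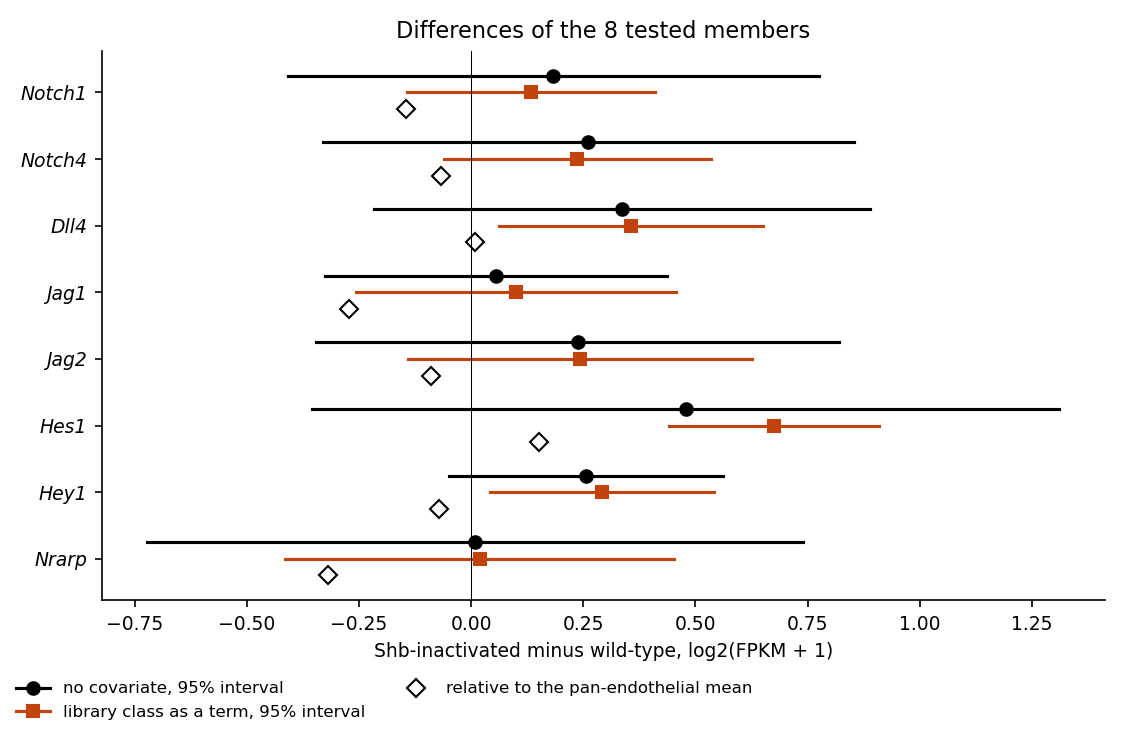
Shb-inactivated minus wild-type difference in log2(FPKM + 1) of the 8 tested members: black circles without covariate and orange squares with the kind of library as a term (added after the values were seen), each with its 95% interval over 10 libraries, and open diamonds relative to the pan-endothelial mean of each library. All 8 black intervals include 0, and the orange intervals of Dll4, Hes1 and Hey1 do not, without passing the adjusted threshold.

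Across the 10 libraries, the other ligands, receptors and Nrarp followed Dll4 to different degrees, and Hes1 least. The place of Hes1 depended on the libraries kept. Pearson correlations of log2(FPKM + 1) with Dll4 were computed for 12804 genes, with a permutation p and Benjamini-Hochberg adjustment over them, and 362 genes passed (2.83%), 294 of them with a positive r (2.30%). Jag2 (r = 0.94, Spearman 0.89, permutation p = 0.0004, adjusted p = 0.0333) and Notch4 (r = 0.91, Spearman 0.65, permutation p = 0.00093, adjusted p = 0.0419) were the 2 members among them. With 1 library left out at a time, Notch4 kept its call in 2 of 10 cases (adjusted permutation p = 0.0316 to 0.12) and Jag2 in 3 of 10 (0.0242 to 0.0946), and the number of genes passing ran from 13, without Shb-inactivated replicate 3, to 931, without wild-type replicate 1. Nrarp followed with r = 0.87 (Spearman 0.82, permutation p = 0.00145, adjusted p = 0.0505), then Notch1 with r = 0.80 (Spearman 0.56, adjusted p = 0.0932, by permutation) and Hey1 with r = 0.76 (Spearman 0.90, adjusted p = 0.111, by permutation). Jag1 had r = 0.47 (Spearman 0.50) and Hes1 r = 0.34 (Spearman 0.48), with adjusted permutation p-values of 0.422 and 0.609. Untested and scarce, Heyl had r = 0.81 and Hey2 r = 0.46. The median r over all genes was 0.05.

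Without Shb-inactivated replicates 1 and 2, r with Dll4 fell for Notch1, Notch4, Jag1, Jag2, Nrarp and Heyl. It rose for Hes1, Hey1 and Hey2. Those 2 libraries were also the farthest from the median of Dll4. Without them, over 8 libraries, r was 0.80 for Jag2, 0.69 for Notch4, 0.74 for Nrarp and 0.80 for Hey1, with adjusted permutation p-values of 0.149, 0.277, 0.22 and 0.132. For Notch1 it was 0.26, so that its relation with Dll4 rested on those 2 libraries. For Hes1 it was 0.72 without them and for Hey2 0.96, and both targets were low for their Dll4 level in those 2 libraries. Among the 6 Shb-inactivated libraries alone, r was 0.95 for Jag2, 0.94 for Notch4, 0.93 for Nrarp, 0.69 for Hey1 and 0.06 for Hes1, and no gene passed the adjusted threshold. After subtraction of the group means, r was 0.95 for Nrarp, 0.94 for Jag2, 0.91 for Notch4, 0.71 for Hey1 and 0.22 for Hes1. Without the 3 macrophage-rich libraries no gene passed either, and r was 0.93 for Jag2, 0.86 for Notch4, 0.71 for Nrarp, 0.62 for Hey1 and -0.06 for Hes1. Without the 3 low-snoRNA libraries r was 0.91 for Hey1, 0.90 for Hes1, 0.80 for Jag2, 0.79 for Notch4 and 0.76 for Nrarp. The adjusted permutation p of Hes1 was 0.0771 there. Among the libraries kept, the macrophage-rich ones had 63.9 to 82.8 FPKM of Dll4 and 37.8 to 62.1 FPKM of Hes1. The other 4 had 94.6 to 113 FPKM of Dll4 and 84.1 to 140 FPKM of Hes1. The part of the kind of library in this r was not tested. After GC adjustment, over 10 libraries, Hes1 had r = 0.58 (adjusted permutation p = 0.274). Within a kind of library there were 3 or 4 libraries, too few for a correlation.

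Relative to the pan-endothelial mean of each library, Jag2, Notch4 and Nrarp passed the threshold (r = 0.89, 0.87 and 0.88, adjusted permutation p = 0.0285, 0.0366 and 0.0357 over 10 libraries). On that scale 873 of 12804 genes passed, against 362 on the scale as deposited. Hey1, Hes1 and Jag1 had r = -0.09, -0.21 and -0.12 with Dll4. The same mean was subtracted from both genes of a pair, and its part in these correlations was not tested. This scale was not combined with leaving out the libraries farthest from the median of Dll4. Cdh5 had r = 0.83 with Dll4 and Pecam1 r = 0.40 on the FPKM scale as deposited.

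**Figure D5:**
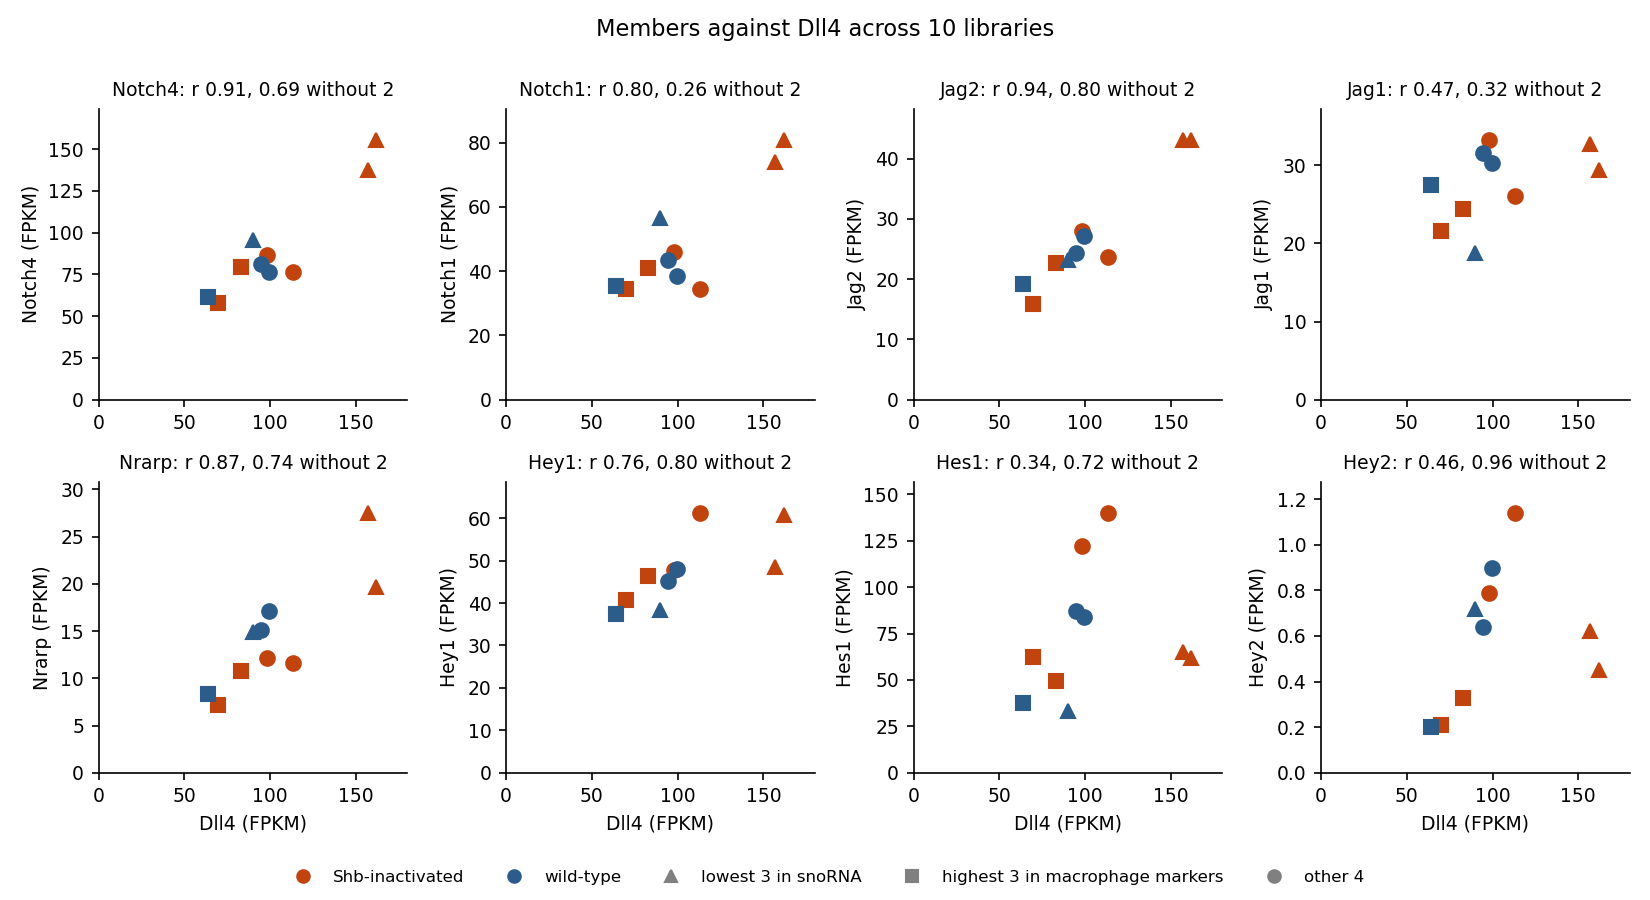
FPKM of 8 members against FPKM of Dll4 in the 10 libraries (Shb-inactivated orange, wild-type blue; shapes give the 3 kinds of library), with Pearson r of log2(FPKM + 1) over 10 libraries and without Shb-inactivated replicates 1 and 2 above each panel. Those 2 libraries sit alone at the right, on the line of the rest for Jag2, and below it for Hes1 and Hey2.

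The targets were also set against Dll4 within each library, and none of the 3 tested differed between the groups on that scale. The Hes1 to Dll4 ratio of FPKM ranged from 0.368 to 1.25 over the 10 libraries and averaged 0.793 ± 0.390 in Shb-inactivated and 0.681 ± 0.252 in wild-type libraries (SD, n = 6 and 4). The Hey1 to Dll4 ratio averaged 0.476 ± 0.111 in Shb-inactivated and 0.493 ± 0.068 in wild-type libraries. The Nrarp to Dll4 ratio had 0.102, 0.123 and 0.176 as lowest, median and highest in Shb-inactivated libraries, against 0.166, 0.160, 0.131 and 0.172 in wild-type replicates 1 to 4. For Nrarp, 5 of 6 Shb-inactivated libraries lay below the lowest wild-type ratio, and Shb-inactivated replicate 1 lay above all the others. This count was not planned, and the share of all genes with such a pattern was not computed. The Nrarp level may also hold reads of Gm38287. On the log2 scale relative to Dll4, the differences were -0.33 for Nrarp (limma adjusted p = 0.629), 0.14 for Hes1 (adjusted p = 0.818) and -0.08 for Hey1 (adjusted p = 0.824), and 0 of 12804 genes were called by limma (0%), with 6.14% under an unadjusted p of 0.05. The difference of Nrarp relative to Dll4 was -0.42 to -0.27 when each library was left out in turn. Subtracting Dll4 lowers the difference of every gene by that of Dll4 itself, 0.34. Before that step Nrarp was at 0.01, as was the median of all genes, so -0.33 is no shift particular to Nrarp.

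The genes most like Dll4 and each target across the 10 libraries were listed as a description. They were ranked by Pearson r of log2(FPKM + 1) among tested genes with a mean of at least 5 FPKM. Clone-type symbols, such as Gm and Rik names, were left out. Gm14207 and Gm38287, which overlap Dll4 and Nrarp, were therefore not candidates. For Dll4 they were F11r (r = 0.98), Sema3f (0.98), Ushbp1 (0.98), Col18a1 (0.98) and Pcdhgc3 (0.98), which kept r at 0.95 to 0.96 without Shb-inactivated replicates 1 and 2. F11r encodes a junctional adhesion molecule, Sema3f a secreted semaphorin and Col18a1 the collagen from which endostatin is cut. For Hes1 they were Slc30a4 (0.96), Plekha1 (0.96) and Cav1 (0.96), the last encoding caveolin. For Hey1 they were Dhx32 (0.97), Tle1 (0.97) and Golga3 (0.97), and Tle1 is a corepressor that repressors of the Hes family recruit. For Nrarp they were Papln (0.97), Tbxa2r (0.97) and Kctd17 (0.97). For the scarce targets they were Tmem181a (0.98), Ppp2r1b (0.95) and Anapc4 (0.93) with Hey2, and Gimap1 (0.95), Pqlc1 (0.95) and Tm4sf1 (0.94) with Heyl.

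The other genes of the Notch pathway did not differ past the threshold either. Of 64 further pathway genes listed by role, 62 were in the tables and 54 were tested. Of these, 33 were above 0 and 21 below (51.2% of all tested genes were above 0), and their median difference was 0.04. None had an adjusted limma p under 0.05 (0% of all tested genes) or an unadjusted limma p under 0.05 (3.45% of all tested genes). The most abundant genes of each list are described here. Adam10, the protease that makes the first cut in a ligand-bound receptor, averaged 88.2 ± 12.9 FPKM in Shb-inactivated and 73.0 ± 4.94 FPKM in wild-type libraries (SD, n = 6 and 4; difference 0.26, exact permutation p = 0.0333, limma adjusted p = 0.989). Psenen, a subunit of the gamma-secretase that makes the next cut, averaged 56.1 ± 5.60 FPKM in Shb-inactivated and 49.3 ± 12.5 FPKM in wild-type libraries. Of the 10 receptor cleavage genes tested, 6 were above and 4 below 0.

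Mib1, a ubiquitin ligase that ligands need to signal, averaged 44.6 ± 2.94 FPKM in Shb-inactivated and 42.6 ± 4.69 FPKM in wild-type libraries, and its relative Neurl1b averaged 15.3 ± 4.78 FPKM in Shb-inactivated and 11.7 ± 1.44 FPKM in wild-type libraries (SD, n = 6 and 4). Mfng, a Fringe glycosyltransferase that modifies Notch receptors, averaged 44.4 ± 10.6 FPKM in Shb-inactivated and 36.6 ± 6.42 FPKM in wild-type libraries, and Poglut1, which adds glucose to them, averaged 20.8 ± 2.32 FPKM in Shb-inactivated and 20.6 ± 2.94 FPKM in wild-type libraries. Mfng followed Dll4 with r = 0.95 over 10 libraries and 0.91 without Shb-inactivated replicates 1 and 2 (adjusted permutation p = 0.0167 over 10 libraries); this relation was picked out after the values were seen. Of 5 glycosylation genes tested, 2 were above and 3 below 0, and of 4 ligand ubiquitination genes, 3 were above and 1 below 0.

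In the nucleus, 6 of 8 genes of the activating complex and 6 of 10 corepressors were above 0. Snw1, a cofactor of RBPJ, averaged 35.6 ± 4.53 FPKM in Shb-inactivated and 33.8 ± 5.86 FPKM in wild-type libraries. The corepressor Ctbp1 averaged 77.0 ± 13.2 FPKM in Shb-inactivated and 78.3 ± 2.19 FPKM in wild-type libraries. Kat2b, an acetyltransferase, and Ncor1, a further corepressor, differed by 0.02 and 0.06 on the log2 scale (limma adjusted p = 0.997 and 0.993). Rbpj, singled out after its values were seen, had 31.9 to 44.3 FPKM in the 3 macrophage-rich libraries and 8.36 to 12.3 FPKM in the other 7.

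Among antagonists and turnover genes, 6 of 8 tested were above 0. Numb, which promotes removal of Notch receptors, averaged 36.2 ± 3.26 FPKM in Shb-inactivated and 33.4 ± 6.96 FPKM in wild-type libraries, and the repressor gene Bcl6b averaged 53.7 ± 13.5 FPKM in Shb-inactivated and 48.7 ± 15.9 FPKM in wild-type libraries (SD, n = 6 and 4). Of 6 tested targets outside the members, 2 were above and 4 below 0. Id3 averaged 99.7 ± 21.7 FPKM in Shb-inactivated and 98.9 ± 21.3 FPKM in wild-type libraries, and Id1 averaged 79.8 ± 20.5 FPKM in Shb-inactivated and 80.8 ± 21.5 FPKM in wild-type libraries. Both encode inhibitors of helix-loop-helix factors and are better known as targets of BMP signalling. Hes6 averaged 6.18 FPKM over the 10 libraries, and Hes5, Hes7 and Hes2 averaged 0.086, 0.055 and 0.003 FPKM.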

How the data were processed

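The authors deposited FPKM by gene symbol, in tables with a decimal comma that were read as decimals. Per the submitters' processing notes the authors used TopHat2 2.1.1, Cufflinks 2.2.1 and GRCm38; their annotation and strand setting are not known here. Per the labels' protocols, RNA was purified with RNeasy and ribosomal RNA was removed before stranded library construction. Summed FPKM per library was 477329 to 576687 and Spearman correlations between libraries 0.841 to 0.977, so no libraries were identical. FPKM holds no read totals, so depth is unknown and counting intervals could not be had.

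Tests used log2(FPKM + 1), which understates changes of low genes. The 12805 genes reaching 1 FPKM in 4 or more libraries were compared, 6 Shb-inactivated against 4 wild-type libraries, with limma 3.58.1 in R 4.3.3 (trend, no covariate, two-sided, Benjamini-Hochberg over all genes, threshold 0.05). Per the series' design text the libraries come from 6 and 4 mice. Single genes also had a two-sided exact permutation test over 210 splits, whose smallest p is 0.00476. Correlations with Dll4 used 100000 permutations. The limma fit and the correlation with Dll4 were tested on simulated data, and the other steps were not. The shifts planted for limma were larger than the difference of any member. GC content came from the longest coding transcript in GENCODE vM21, known for 86.4% of tested genes.

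The members, gene lists and tests were chosen with earlier results of these data known. Named genes were the members, Shb, Pecam1, Cdh5 and the 2 most abundant of each pathway list with any other at an unadjusted p under 0.05. The 5 genes most like Dll4 and the 3 most like each target were also named, with clone-type symbols left out. The group difference was computed under 30 alternatives, 26 listed at the outset and 4 added after the values were seen. The correlations had 21 alternatives, 2 of them added, and the levels relative to Dll4 had 17, all added. Plots were drawn with matplotlib 3.10.9.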

Additional observations from a re-analysis of the deposited data

How the results depend on the processing

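Of 575 alternative values computed over all results, 464 kept their direction, side of the threshold or size, and 45 changed direction. A further 29 changed in size, 27 lost the threshold and 10 gained it. The median over the 8 members was judged by size alone, so its changes of direction are not among the 45. That median was -0.08 relative to the pan-endothelial mean and -0.04 without Shb-inactivated replicates 1 and 2. No gene passed the threshold in any fit of the group difference other than 1, which passed 852: the kind of library as a term with values relative to the pan-endothelial mean, added after the values were seen, in which the median of all genes lay at -0.35. No member passed there; Shb did, at -1.67 (limma adjusted p = 0.0399). Shb had -1.27 in the exact permutation test, past that test's threshold. Counts at an unadjusted p under 0.05, 442 in the fit reported, ran from 186 with the melanoma score as covariate to 6360 in the fit with 852 calls. The median over the 8 members was -0.11 in that fit.

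Dll4 stayed above 0 in all 30 alternatives, but was 0.0090 and 0.0018 relative to the pan-endothelial mean without and with the kind of library as a term, 0.062 without Shb-inactivated replicates 1 and 2 and 0.084 without the low-snoRNA libraries. Relative to the pan-endothelial mean, without and with the kind of library as a term, Notch1 was at -0.14 and -0.22, Notch4 at -0.067 and -0.12, Jag1 at -0.27 and -0.25, Jag2 at -0.090 and -0.11, Hey1 at -0.072 and -0.063, and Nrarp at -0.32 and -0.34. Without the low-snoRNA libraries Notch1 was at -0.013, Jag1 at -0.19, Jag2 at -0.076 and Nrarp at -0.32. Without Shb-inactivated replicates 1 and 2 Notch1 was at -0.14, Notch4 at -0.061, Jag1 at -0.026, Jag2 at -0.074 and Nrarp at -0.36. With library quality weights, whose estimation stopped short of convergence, Jag1 was at -0.064, Nrarp at -0.20, Hes1 at 0.14, Dll4 at 0.16 and Hey1 at 0.12. With the melanoma score as covariate Jag1 was at -0.13, Hes1 at -0.059 and Nrarp at -0.15, with the mural cell score Jag1 at -0.0079 and Nrarp at -0.088, and with the macrophage score Nrarp at -0.10. With each library left out in turn, Jag1 ranged from -0.10 to 0.14 and Nrarp from -0.20 to 0.18, and the other 6 tested members stayed above 0. The cause of these changes was not tested.

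Relative to Dll4 with each library left out, Hes1 ranged from -0.12 to 0.32 and Hey1 from -0.15 to 0.036. Hey1 was at 0.076 without the low-snoRNA libraries and 0.14 without Shb-inactivated replicates 1 and 2. The correlation with Dll4 turned to -0.12 for Jag1, -0.21 for Hes1 and -0.087 for Hey1 relative to the pan-endothelial mean, and to -0.056 for Hes1 without macrophage-rich libraries. The genes correlated with Dll4, 362 as reported, numbered 873 relative to the pan-endothelial mean, 1267 after subtraction of group means, 0 in the Shb-inactivated libraries alone, 719 without Shb-inactivated replicates 1 and 2, which were the 2 farthest from the median of Dll4, 768 without the low-snoRNA libraries, 0 without the macrophage-rich ones, 989 after GC adjustment, and 13 to 931 with each library left out. Of 21 alternatives Jag2 passed in 8, Notch4 in 7, Nrarp in 5 (adjusted p = 0.0105 after subtraction of group means), Hey1 in 2 (by Spearman, 0.0432, and without the low-snoRNA libraries, 0.0404) and Notch1 in 1 (without Shb-inactivated replicate 5, 0.0455), all by permutation.

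Whether equal replicate numbers pair the samples is not given in the sources used here. Residuals correlated at 0.44, -0.32, 0.71 and -0.55 over the 4 pairs of equal number. These values cannot decide it, since the kind of library also enters them. Wild-type replicate 3 was at 0.71 with Shb-inactivated replicate 3 and at 0.75 with replicate 4, all of them macrophage-rich. With the replicate number as a block, the differences were 0.10 for Hes1, 0.36 for Dll4 and 0.20 for Hey1, no gene was called, and Hes1 relative to Dll4 was at -0.26. Unknown depth limits Hey2 and Heyl most.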
